A study of Mus musculus with 12 samples.

Results

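The clustered protocadherins are the genes whose symbols start with Pcdha, Pcdhb or Pcdhg. Members were picked by symbol and not by a measured value, though this choice was made with earlier results of these data known. They number 57 of the 46297 gene rows of the table. The families hold 14 Pcdha, 22 Pcdhb and 21 Pcdhg genes. The tissue was olfactory mucosa, dissected from males at postnatal day 30, and total RNA was sequenced after removal of ribosomal RNA. Of the 12 libraries, 6 came from mice with the enhancer A (eA) deletion, which removes 912 bp of chromosome 7 (102509701 to 102510612, with no build named beside these positions), and 6 from wildtype mice. Both groups bear the strain label 129S6;C57BL/6J. The labels number the samples without saying that each is its own animal, so p-values measure the spread between these libraries. They do not give the zygosity of the deletion, or the strain from which an animal had its alleles at other loci. By its title the study is about enhancers of class I odorant receptors. The comparison here asks how the protocadherin cluster, which lies on another chromosome, was expressed in those animals.

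Clustered protocadherins are adhesion molecules of the cadherin superfamily at the neuronal surface. In the Pcdha and Pcdhg families each member has its own promoter and a large first exon for the cadherin repeats, which is spliced to short exons that all members of the family share, while the Pcdhb genes are mostly single exons with no shared part. A neuron switches on a small, partly random set of promoters in a process that uses the insulator protein CTCF and cohesin, and matching sets on touching membranes allow a cell to tell its own processes from those of others. The C-type members Pcdhac1, Pcdhac2, Pcdhgc3, Pcdhgc4 and Pcdhgc5 follow other rules of choice than the remaining members. Olfactory sensory neurons, the main neurons of the mucosa, need clustered protocadherins for the ordered ending of their axons in the olfactory bulb. Bulk RNA averages over all of these cells, so it gives the level of each member in the tissue and not the combination in any neuron, and fewer expressing cells cannot be told apart from less RNA per cell.

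In the GENCODE M21 annotation of GRCm38 the families lie on chromosome 18 in the order Pcdha (36930184 to 37187661), Pcdhb (37264938 to 37524479) and Pcdhg (37661793 to 37841873), all on the same strand. All 57 rows matched this annotation by gene identifier and version. The row named Pcdha10 (ENSMUSG00000007440.10) bears the symbol Pcdha11 in that annotation, as does the row named Pcdha11 (ENSMUSG00000102206.5), and the names of the table are kept here. Of the annotated exon bases, a median of 46.4% in Pcdha and 55.4% in Pcdhg belong to no other gene on that strand, against 100% in Pcdhb. The counting of reads on shared exons is not stated in the labels or the table. The values of Pcdha and Pcdhg members are therefore less certain than those of Pcdhb. Levels are compared between genes as normalized counts per kb of unshared exon.

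Libraries held between 13011763 and 23039733 reads on genes, of which the 57 members took between 0.0738% and 0.0853% (10241 to 19171 reads). Every member had at least 1 read in each of the 12 libraries. The predicted gene Gm10800 took over 1% of reads in 4 libraries, deletion libraries 3 and 6 and wildtype libraries 2 and 3, and at most 0.885% in the other 8. These 4 libraries also had more genes with a read, 36565 to 42218, against 28832 to 33895 in the other 8. Deletion libraries 5 and 6 and wildtype library 5 stood apart from the rest in several members, as described further on.

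Pcdhb1 stood far above all other members. Its level was 2524 ± 153 normalized counts per kb in the deletion and 2690 ± 117 in wildtype (SD, n = 6 each). Over all 12 libraries that is 19.8 times the level per kb of Pcdhb17, the next member, and it places Pcdhb1 at rank 207 of 19351 tested genes with unshared exon bases. Pcdhb1 alone supplied between 46.6% and 50.3% of the summed signal of the 57 members in deletion libraries, and between 47.1% and 52.5% in wildtype libraries. In normalized counts it ran from 6010.4 to 6980.5 with a median of 6606 in the deletion, and from 6698 to 7465 with a median of 6854 in wildtype. Of the 6 deletion libraries 1 was above the wildtype mean, and the groups overlapped. Its log2 difference, deletion over wildtype, was -0.093 ± 0.054 (SE; 95% interval -0.21 to 0.022), with an adjusted p of 0.766 over all genes (limma).

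**Figure D1:**
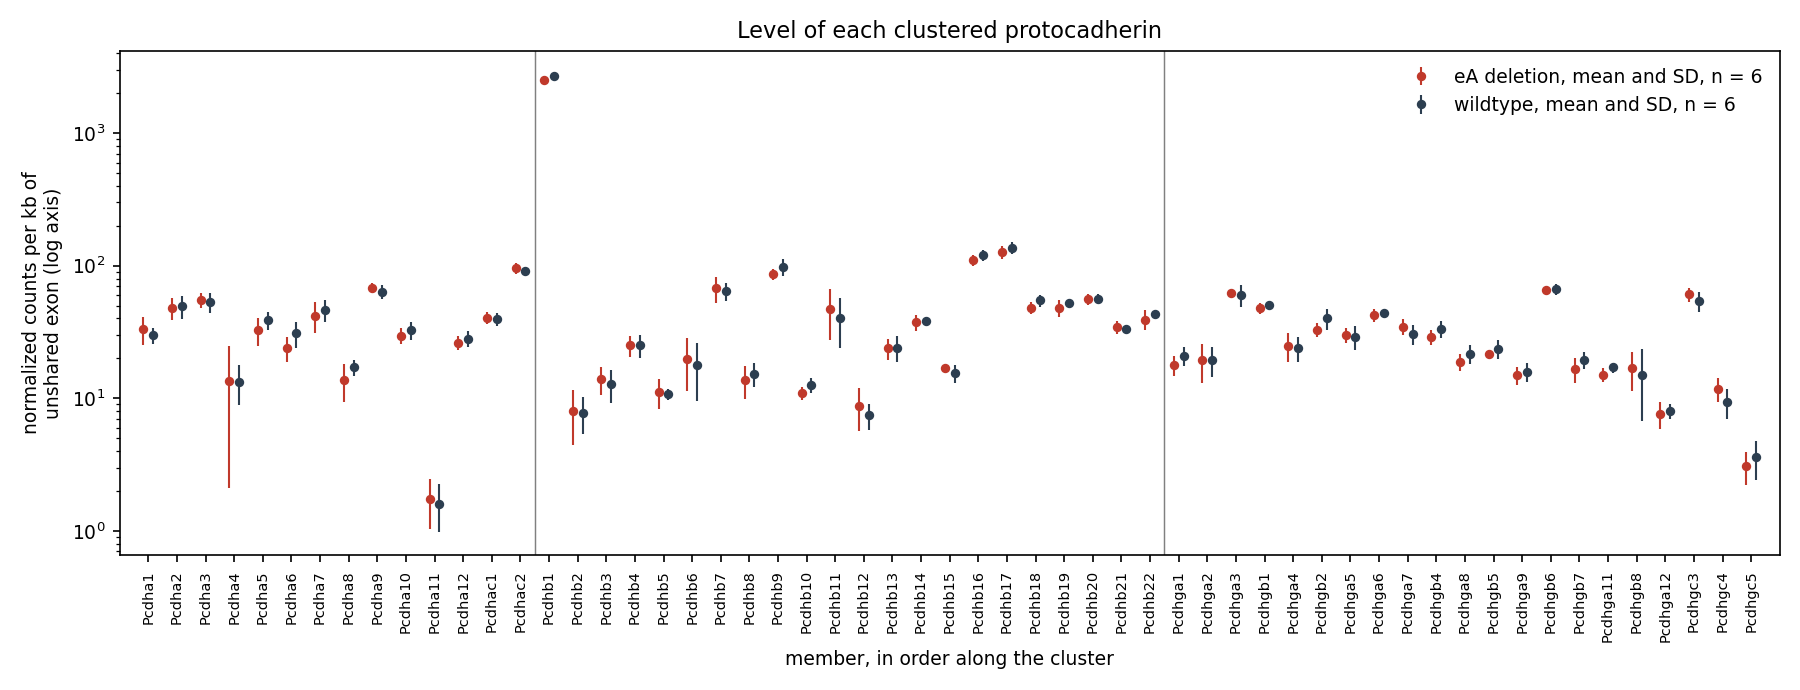
Level of each of the 57 members in normalized counts per kb of unshared exon, on a log axis, with members in their order along the cluster. Points are means and bars SDs of 6 eA deletion (red) and 6 wildtype (dark) libraries. Pcdhb1 lies at 2524 in the deletion and 2690 in wildtype, and Pcdhb17, the next member, at 127 in the deletion and 136 in wildtype.

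The other members were low to moderate. The median level per kb of the tested genes was 64.7, and 8 of the 55 tested members were above it. Per kb of unshared exon, the median over members was 33.6 in Pcdha, 36.0 in Pcdhb and 22.7 in Pcdhg. Among the Pcdhb genes other than Pcdhb1, Pcdhb17 was highest with 127 ± 14.2 per kb in the deletion and 136 ± 14.5 in wildtype, followed by Pcdhb16 with 110.4 ± 10.1 in the deletion and 119.8 ± 11.7 in wildtype. Pcdhb2, the gene next to Pcdhb1, was the lowest of its family over the 12 libraries, with 8.02 ± 3.54 per kb in the deletion and 7.76 ± 2.41 in wildtype. Adjacent genes of 1 family thus stood at opposite ends of its range.

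In Pcdha the C-type member Pcdhac2, at the end of the family next to the shared exons, was the highest. It had 95.8 ± 8.82 normalized counts per kb in the deletion and 91.5 ± 6.14 in wildtype. Pcdha9 followed with 68.2 ± 6.21 in the deletion and 63.7 ± 7.77 in wildtype, then Pcdha3 with 55.0 ± 7.44 in the deletion and 53.1 ± 9.01 in wildtype. Pcdhac1, the other C-type member of the family, had 40.3 ± 4.25 per kb in the deletion and 39.6 ± 4.50 in wildtype. Pcdha4 and Pcdha11 were the lowest by normalized counts, between 0.998 and 16.7 in deletion libraries and between 4.04 and 11.1 in wildtype libraries, and fell below the mean of 10 needed for the limma test. DESeq2, run without that filter, called neither. For Pcdha4 only 494 of 5768 annotated exon bases are unshared, against at least 2139 bases in every other Pcdha member.

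In Pcdhg, Pcdhgb6 was the highest with 65.9 ± 3.65 per kb in the deletion and 66.5 ± 6.09 in wildtype. Pcdhga3 had 62.0 ± 1.89 per kb in the deletion and 60.5 ± 11.5 in wildtype. The C-type members of this family lay both near its top and at its bottom. Pcdhgc3 had 60.8 ± 7.31 per kb in the deletion and 54.0 ± 9.44 in wildtype, Pcdhgc4 had 11.8 ± 2.38 in the deletion and 9.34 ± 2.36 in wildtype, and Pcdhgc5 was the lowest member of the family with 3.35 per kb over all 12 libraries. Pcdhgb8, which the annotation calls a polymorphic pseudogene, stood at 15.9 per kb over all 12 libraries.

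The non-clustered protocadherins, single genes spread over the genome, gave a scale for these levels. Per kb of unshared exon, Pcdh7 had 365 in the deletion and 379 in wildtype, and Pcdh17 had 203 in the deletion and 204 in wildtype. Pcdh1, encoded near the cluster on chromosome 18, had 143 in the deletion and 136 in wildtype. Over all 12 libraries these 3, and Pcdh8 with 140, were above every clustered member except Pcdhb1. In wildtype, though, Pcdh1 and Pcdhb17 were level at 136. Other non-clustered genes lay within the clustered range, with 36.2 for Pcdh10 and 34.5 for Pcdh11x over all 12 libraries, and 4.00 for Pcdh15, the lowest of the 12.

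No clustered protocadherin passed the test between genotypes. Among the 55 tested members, those with a mean normalized count of at least 10, 0 had an adjusted p under 5% (limma on log2(value + 1), adjusted over all 19373 genes tested), where 0.372% of all tested genes did (0.031% higher and 0.341% lower in the deletion). At an unadjusted p under 0.05 stood 2 members, Pcdhb18 and Pcdhgb2, both lower in the deletion, and 0 higher, against 6.68% of all tested genes (3.49% higher and 3.2% lower). A count test on recovered reads with edgeR called 0 members (0.346% of all tested genes), with 3 at an unadjusted p under 0.05, Pcdha6, Pcdhb18 and Pcdhgb2 (6.67% of all). DESeq2 called 0 of 57 (0.268% of all genes with an adjusted p), with 0 at an unadjusted p under 0.05 (3.83% of all). In the authors' deposited table the lowest adjusted p of a member was 0.847. The groups overlapped in all 57 members, and did not overlap in 0.588% of tested genes. Without deletion libraries 5 and 6 and wildtype library 5, limma again called 0 members, with 23 positive and 32 negative.

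The estimates were small. The log2 difference, deletion over wildtype, ran from -0.37 to 0.35 over the 55 members with a median of -0.049, against a median of 0.0087 over all genes tested. It was positive for 20 members and negative for 35, against 10190 positive and 9183 negative over all genes tested. The 95% interval lay within a 1.5-fold change in either direction for 44 members and within 2-fold for all 55. Of all 19373 genes tested, 14343 had an interval within 1.5-fold. The median SE was 0.134 over the members and 0.105 over all genes tested. The members were measured in the same libraries and are not independent of one another. The median was -0.071 in Pcdha (5 positive, 7 negative), -0.014 in Pcdhb (8 positive, 14 negative) and -0.073 in Pcdhg (7 positive, 14 negative).

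**Figure D2:**
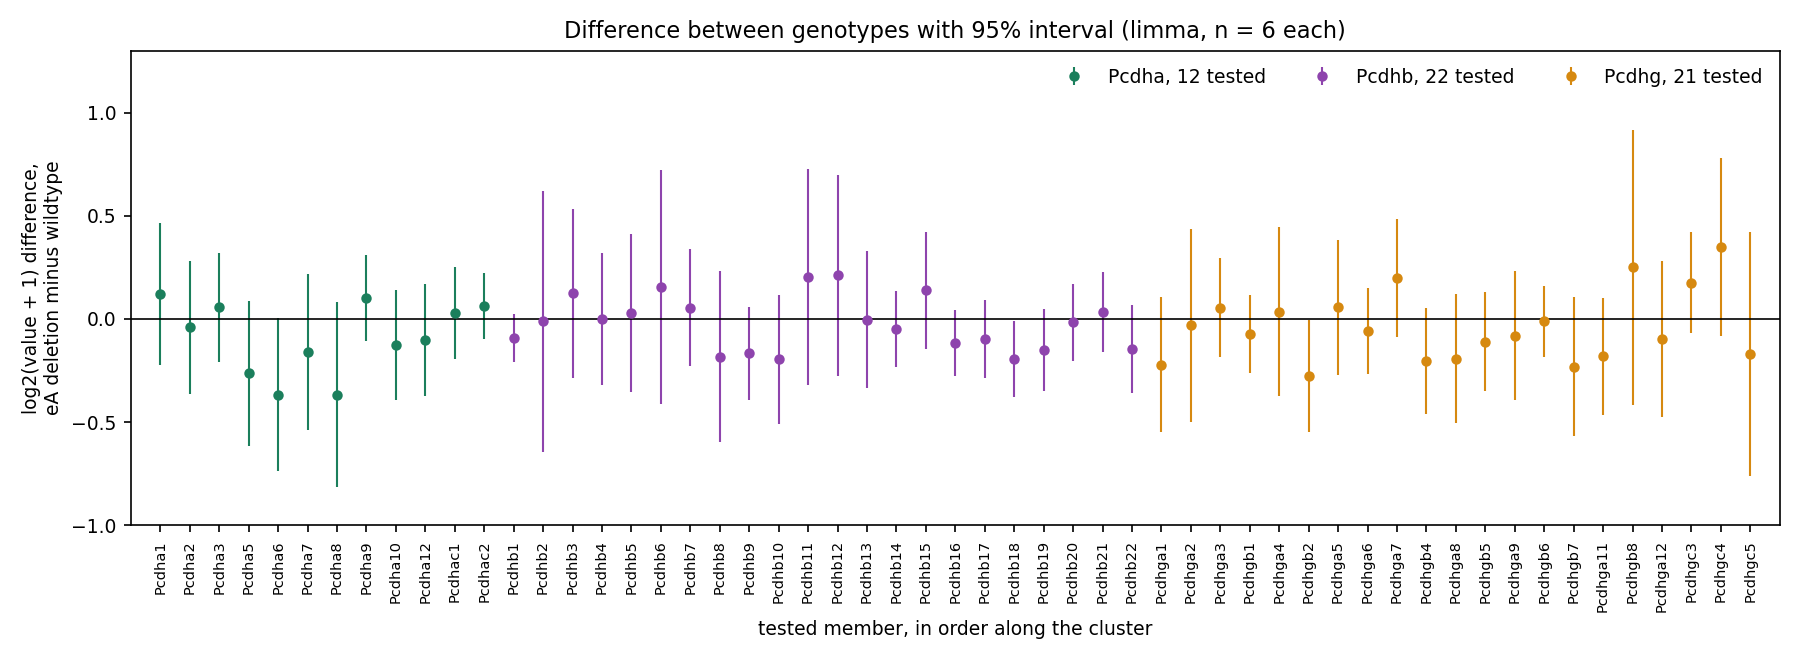
Difference in log2(value + 1), eA deletion minus wildtype, for the 55 tested members in cluster order, with 95% intervals from limma (n = 6 each) and colours by family. Estimates lie between -0.37 and 0.35, and the intervals of 53 members include 0.

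The members with the smallest p in each family were as follows. In Pcdhb it was Pcdhb18, with 212 to 283 normalized counts in deletion libraries (median 234) and 241 to 314 in wildtype libraries (median 274). Of its deletion libraries 1 was above the wildtype mean. Its log2 difference was -0.20 ± 0.087 (SE), with an adjusted p of 0.744 by limma. In Pcdhg, Pcdhgb2 had 72.9 to 106 in the deletion (median 92.7) and 91.8 to 142 in wildtype (median 104), and 0 of 6 deletion libraries were above the wildtype mean. Its log2 difference was -0.28 ± 0.13, also with an adjusted p of 0.744 by limma. In Pcdha, Pcdha6 had 42.9 to 73.0 in the deletion (median 49.8) and 49.8 to 88.7 in wildtype (median 72.4), a log2 difference of -0.37 ± 0.17 with an adjusted p of 0.744 by limma. None of these members passed the threshold.

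The smallest p among members with higher means in the deletion belonged to C-type genes in Pcdhg. Pcdhgc4 ran from 29.9 to 51.4 normalized counts in the deletion (median 40.6) and from 18.9 to 43.4 in wildtype (median 33.6). Of its deletion libraries 5 were above the wildtype mean, and the log2 difference of 0.35 ± 0.20 had an adjusted p of 0.766 by limma. Pcdhgc3 ran from 164 to 240 in the deletion (median 205) and from 152 to 241 in wildtype (median 175), with a log2 difference of 0.18 ± 0.11. Differences for the other C-type members were 0.064 ± 0.075 for Pcdhac2, 0.028 ± 0.11 for Pcdhac1 and -0.17 ± 0.28 for Pcdhgc5. In Pcdhb the corresponding members were Pcdhb15, with 0.14 ± 0.13 and 6 of 6 deletion libraries above the wildtype mean, and Pcdhb12, with 0.21 ± 0.23. In Pcdha they were Pcdha9, with 0.10 ± 0.098, and Pcdhac2. Among further members named for their level or p, log2 differences were 0.056 ± 0.12 for Pcdha3, -0.37 ± 0.21 for Pcdha8, -0.097 ± 0.088 for Pcdhb17, -0.12 ± 0.076 for Pcdhb16, -0.010 ± 0.081 for Pcdhgb6, 0.055 ± 0.11 for Pcdhga3 and -0.20 ± 0.12 for Pcdhgb4.

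The families were also set side by side as sums. The summed normalized counts of Pcdha were 1310.2 ± 132 in the deletion and 1334 ± 96.7 in wildtype (SD, n = 6 each). For Pcdhb they were 10432 ± 518 in the deletion and 11032 ± 347 in wildtype, and for Pcdhg 1711 ± 50.8 in the deletion and 1749 ± 128 in wildtype. These differences amount to -1.79%, -5.44% and -2.20%. They are given without a test. With 1 library left out at a time they ran from -3.74% to 1.03% for Pcdha, from -6.40% to -4.14% for Pcdhb and from -4.62% to -0.690% for Pcdhg. For Pcdha the sign turned without deletion library 6 (1.00%), without wildtype library 1 (1.03%) and without deletion libraries 5 and 6 and wildtype library 5 (2.09%). The groups overlapped in each family, and Pcdhb1, with a difference in means of -6.15%, is the largest part of the Pcdhb sum. Pcdha supplied 9.73% ± 0.693 of the signal in the deletion and 9.45% ± 0.586 in wildtype, Pcdhb 77.5% (76.5% to 79.0%) in the deletion and 78.2% (76.7% to 79.9%) in wildtype, and Pcdhg 12.7% ± 0.785 in the deletion and 12.4% ± 0.973 in wildtype.

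**Figure D3:**
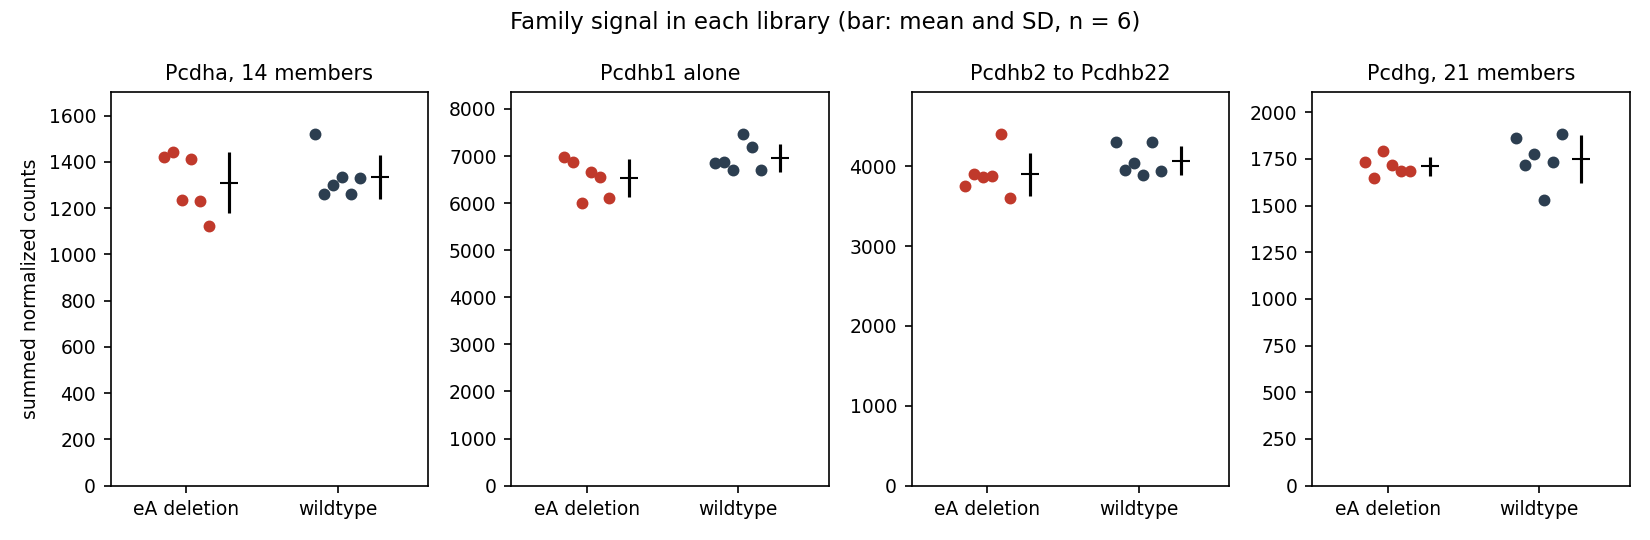
Summed normalized counts in each library for Pcdha, Pcdhb1 alone, Pcdhb2 to Pcdhb22 and Pcdhg, with eA deletion libraries (red) left of wildtype libraries (dark) and each axis starting at 0. Bars give the mean and SD of 6 libraries. The genotypes overlap in all 4 panels.

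Some members differed strongly between libraries of the same genotype. In Pcdhb6, deletion libraries 5 and 6 held 125 and 104 normalized counts and the other 4 deletion libraries 50.5 to 60.5, while wildtype library 5 held 129 and the other 5 wildtype libraries 47.0 to 60.6. Pcdhb11 showed the same 3 libraries on top, with 358 and 266 in deletion libraries 5 and 6 against 139 to 176 in the other deletion libraries, and 325 in wildtype library 5 against 128 to 163 in the other wildtype libraries. So 3 of the 12 libraries stood apart, and they came from both genotypes.

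Deletion libraries 5 and 6 and wildtype library 5 were the 3 highest in 6 members, Pcdhb3, Pcdhb4, Pcdhb6, Pcdhb7, Pcdhb11 and Pcdhgb8. That is 10.9% of the tested members, where 1.07% of all tested genes had these 3 on top. They were the 3 lowest in Pcdhb9 and Pcdhgb4, which is 3.64% of the tested members, against 0.95% of all tested genes. These libraries were singled out after their values were seen, so the counts and the ranks that follow describe them and are no test. The lowest of the 3 was 1.71 times the highest of the other 9 libraries in Pcdhb6 and 1.51 times in Pcdhb11, and these were the first and the second of all 19373 tested genes in that ratio. In Pcdhb7 deletion libraries 5 and 6 had 319 and 269 and the others 191 to 245, and wildtype library 5 had 290.4 and the others 189.9 to 224. In Pcdhgb8 they had 50.9 and 62.9 in the deletion, with 23.7 to 43.4 in the others, and 76.0 in wildtype library 5, with 16.2 to 40.7 in the others.

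**Figure D4:**
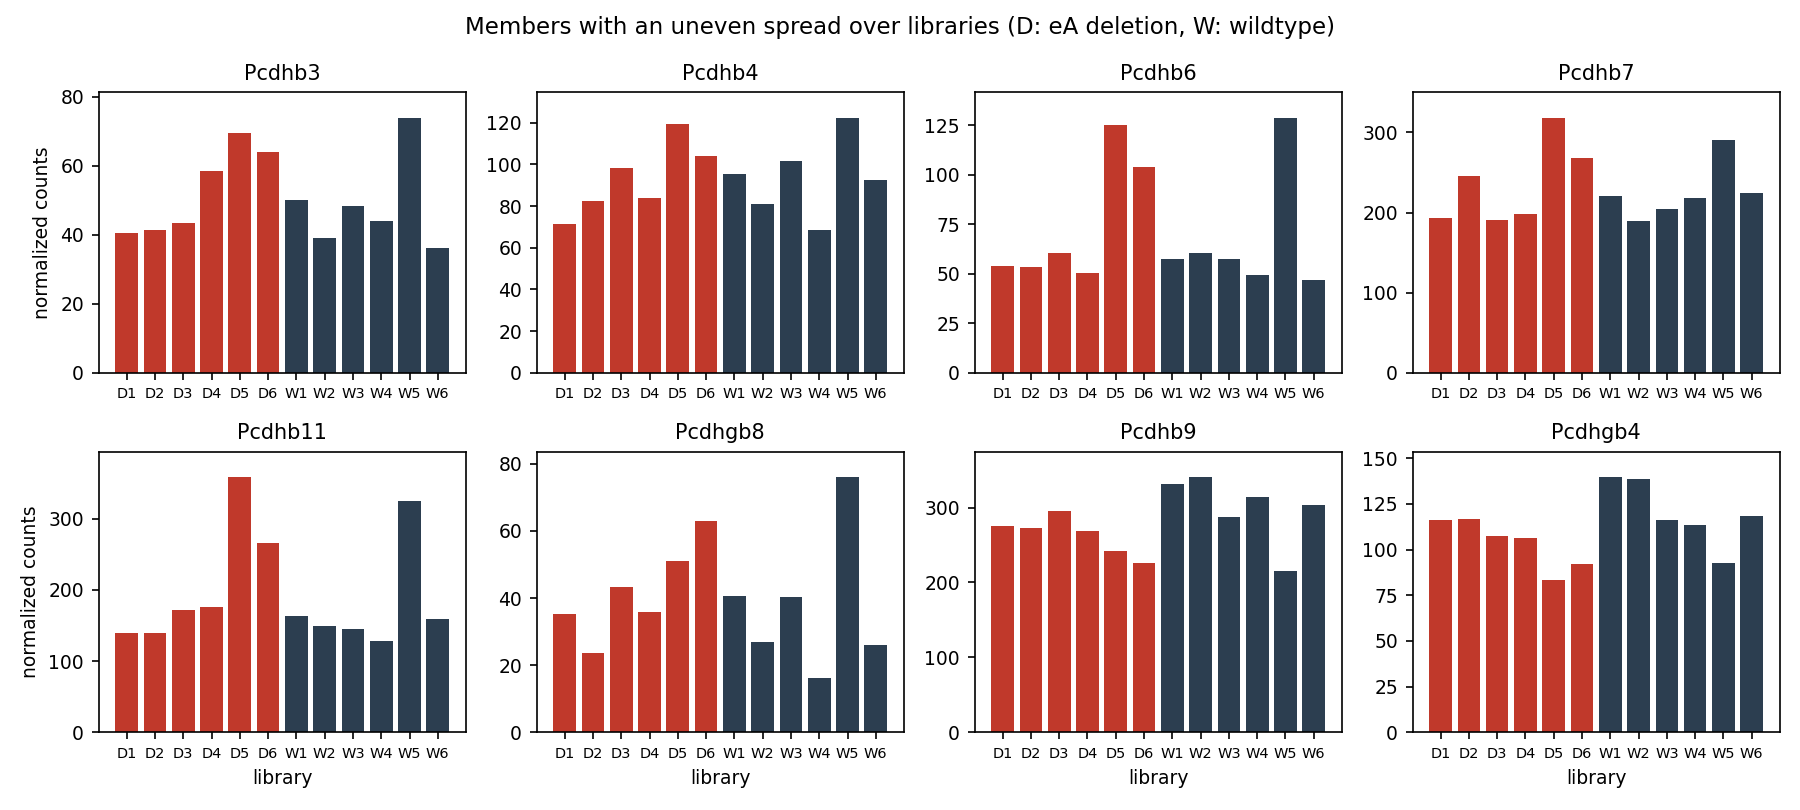
Normalized counts in each library (D1 to D6, eA deletion, red; W1 to W6, wildtype, dark) for the 6 members highest and the 2 lowest in D5, D6 and W5, each axis starting at 0. In Pcdhb6 and Pcdhb11 these 3 bars stand at 104 or more and at 266 or more, above the other 9 by at least 1.51-fold.

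These members lie among others that did not share the order. In Pcdhb9, between Pcdhb8 and Pcdhb10, deletion libraries 5 and 6 had 243 and 227 and the other deletion libraries 269 to 296, and wildtype library 5 had 215 against 287 to 341 in the other wildtype libraries. Of 14 tested genes around the cluster, among them Taf7 inside it and the flanking genes Diaph1 and Hdac3, 0 had the 3 libraries on top and 0 had them lowest. Over all tested genes the shares were 1.07% and 0.95%, so 0 of 14 is close to these shares and gives no contrast with the members. Gm10800 took 2.78% of reads in deletion library 6, 0.434% in wildtype library 5 and 0.0103% in deletion library 5. Its part in this order of libraries was not tested.

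A second order of libraries appeared in Pcdha. Deletion libraries 5 and 6 were the 2 lowest of all 12 in Pcdha1, Pcdha5, Pcdha6, Pcdha7, Pcdha8 and Pcdhgb4. That is 6 of the 55 tested members, against 4.49% of all tested genes. This order too was singled out after the values were seen, so the count is no test. In Pcdha7 they held 71.3 and 58.9 normalized counts and the other deletion libraries 77.5 to 117, with 75.4 to 127 in wildtype. Wildtype library 5 was the lowest of its group in Pcdhgb4 and Pcdha8, with 92.9 and 33.8, and the next to lowest in Pcdha6, with 56.0. It was inside the range of its group in Pcdha5, with 89.8, and in Pcdha7, with 108, and the highest of its group in Pcdha1, with 88.7. None of these 6 members passed the test.

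**Figure D5:**
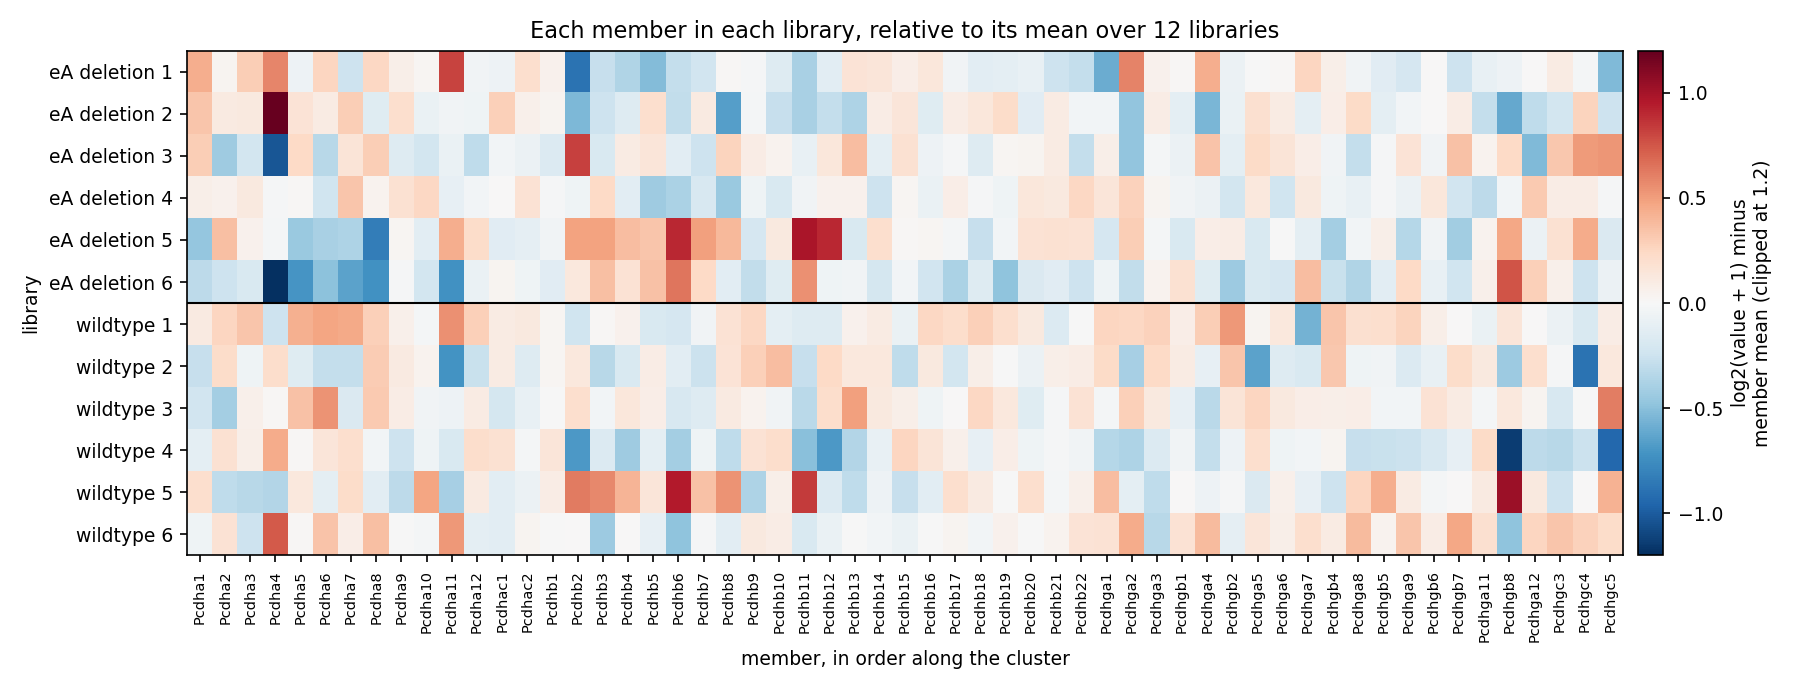
Each of the 57 members in each library as log2(value + 1) minus the member's mean over 12 libraries (colours clipped at 1.2), with the 6 eA deletion libraries above the 6 wildtype libraries and members in cluster order. Red columns at Pcdhb6, Pcdhb7 and Pcdhb11 appear in deletion libraries 5 and 6 and in wildtype library 5, and deletion libraries 5 and 6 are blue from Pcdha5 to Pcdha8.

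The spread within genotypes was set against counting error. The ratio of the observed to the Poisson variance within groups had a median of 2.55 over tested Pcdha members, 3.55 in Pcdhb and 1.79 in Pcdhg, against 3.67 over all genes tested. It was 33.9 for Pcdhb11, the highest of the members, 19.2 for Pcdhb1 and 14.2 for Pcdhb6, and 0.446 for Pcdhb10, the lowest. For the same relative spread this ratio grows with the count of a gene, so it does not rank members by relative spread. Pcdhb1 had 6533 ± 397 normalized counts in the deletion and 6961 ± 304 in wildtype (SD). Pcdhb6 had 74.6 ± 31.7 in the deletion and 66.8 ± 30.8 in wildtype. The medians were not matched for level.

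Of 26 genes with a known part in protocadherin choice 0 passed in either direction, where 0.372% of all tested genes did. For lists this short 0 is close to that share and sets these genes apart in no way. Their median log2 difference was -0.018 (18 negative, 8 positive). Ctcf, which binds protocadherin promoters, had 1741 ± 102 normalized counts in the deletion and 1764 ± 44.4 in wildtype. Log2 differences were -0.18 ± 0.097 for the cohesin regulator Pds5b, the smallest p below 0, and 0.071 ± 0.057 for the transcription factor Lhx2, the smallest above 0. Of 22 genes for partners and signalling of protocadherins 0 passed, with a median of 0.038 (16 positive, 6 negative). The kinase Fyn had 0.034 ± 0.085, the receptor kinase Ret 0.24 ± 0.14 and the synaptic adhesion gene Nlgn1 -0.28 ± 0.35.

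The 12 non-clustered protocadherins also gave 0 calls, close to the share of 0.372% over all tested genes. Their median log2 difference was -0.057 (4 positive, 8 negative). Pcdh9 had 756 ± 105 normalized counts in the deletion and 897 ± 107 in wildtype, a log2 difference of -0.25 ± 0.096 with an adjusted p of 0.702 by limma, and Pcdh1 had 0.076 ± 0.066. Of 16 genes around the cluster 14 could be tested and 0 passed, again close to that share, with a median of 0.051 (10 positive, 4 negative). Taf7, a transcription factor subunit encoded between Pcdhb and Pcdhg, had 446 ± 26.0 in the deletion and 443 ± 42.9 in wildtype. Ik had -0.040 ± 0.064 and Ndufa2, a subunit of mitochondrial complex I, 0.26 ± 0.15.

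Among the marker lists for cell types of this tissue, 0 genes passed in each list, where 0.372% of all tested genes did. For lists this short 0 is close to that share. The first genes of several lists had log2 differences of 0.065 ± 0.098 for Omp of mature neurons, -0.0078 ± 0.11 for Gap43 of immature neurons, 0.092 ± 0.13 for Krt5 of basal cells and 0.11 ± 0.093 for Cyp2g1 of supporting cells. They were 0.15 ± 0.14 for Pecam1 of endothelium, 0.26 ± 0.27 for Bglap of bone, -0.20 ± 0.097 for Ptprc of leukocytes and -0.55 ± 0.24 for Hba-a1 of red blood cells. The summed level of the 16 mature neuron markers ran from 224725 to 260265 normalized counts in the deletion and from 216087 to 260403 in wildtype. Counts of positive and negative differences, with the median, were 14 and 2 (0.070) for these markers, 1 and 8 (-0.014) for immature neurons, 6 and 3 (0.10) for progenitors, 4 and 2 (0.048) for basal cells and 6 and 1 (0.11) for supporting cells. They were 7 and 2 (0.11) for ensheathing glia, 12 and 0 (0.19) for endothelium and mesenchyme, 6 and 2 (0.18) for bone and cartilage, 7 and 1 (0.10) for immune cells and 1 and 4 (-0.12) for blood. Over all genes tested they were 10190 and 9183 (0.0087). The summed endothelial and mesenchymal markers ran from 78348 to 143864 in the deletion and from 66760.2 to 171852 in wildtype, so the groups overlapped. The part of these cell types in the protocadherin values was not tested.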

How the data were processed

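The authors deposited 1 table of 46297 genes. Per the file headers, its library columns hold normalized counts, a signal made from read counts scaled by each library's size factor, beside the authors' log2 fold change of wildtype over deletion (shrunken, from its values), a test statistic (score), p-values and adjusted p-values. Per the submitters' processing notes, STAR 2.6.0, DESeq2 and GRCm38.p6 were used. The read counter, annotation release and strandedness were not given in the sources used here. Values are whole multiples of 1 read (at least 99.989% of values per library within 0.01), so reads were recovered; 1 read is worth 0.998 in deletion library 6, whose values are therefore close to raw counts.

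Genotypes were compared by limma 3.58.1, using a variance trend, on log2(normalized count + 1), for 19373 genes with a mean of at least 10, deletion over wildtype, with Benjamini-Hochberg adjustment over all of them. This scale understates changes of low genes. Alternatives were edgeR 4.0.16 and DESeq2 1.42.0 on recovered reads (67 and 88 genes called, against 72 by limma), other scalings, pseudocounts, filters and library sets. R 4.3.3 and Python 3.11.15 were used. Exon lengths came from GENCODE M21.

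Named were, per family, the 3 members highest per kb, the 2 with the smallest p in each direction and the C-type members, and from other lists the first gene and, outside cell type lists, the smallest p in each direction; some of these are not reported here. Other members are named for their order of libraries, after their values were seen. Members and lists were chosen with earlier results of these data known. No sequences of the cluster are shown.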

Additional observations from a re-analysis of the deposited data

Results flagged for a closer look

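In each group of 6 libraries, a library was singled out when its gap to the nearest other exceeded 0.625 of the range of the group. Of 130 groups examined, for 57 members and 8 family sums and shares, 9 held such a library. For normal and independent values about 1 in 20 is expected, so this count is close to that rate. The groups come from the same libraries and are not independent. Wildtype library 5 stood above its group in 5 members. It had 108 normalized counts of Pcdha10 (others 74.6 to 79.4), 73.9 of Pcdhb3 (others 36.1 to 49.9), 129 of Pcdhb6 (others 47.0 to 60.6), 290.4 of Pcdhb7 (others 189.9 to 224) and 325 of Pcdhb11 (others 128 to 163). Wildtype library 1 had the highest summed Pcdha signal, 1520 (others 1259 to 1336). In the deletion, library 2 had 124 of Pcdhac1 (others 92.6 to 104), library 5 had 45.4 of Pcdhb12 (others 19.3 to 26.3), and library 6 had 468 of Pcdhb17, below the others at 595 to 651.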

How the results depend on the processing

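In all 23 alternatives 0 members were called in each family, with 0 to 5 members at an unadjusted p under 0.05. With the replicate block, using the shared numbers of the labels, 0 Pcdha, 0 Pcdhb and 0 Pcdhg members were called, and 71 genes in all. The labels do not say that same-numbered libraries belong together. Deviations of same-numbered libraries correlated at -0.15 to 0.36, and 0 of 6 deletion libraries matched their own number best. Such correlations cannot settle whether the numbers mark a shared origin. Of 19 named members 12 kept the direction of their log2 difference in all alternatives. With the Gm10800 covariate it turned for Pcdhac2 (-0.025), Pcdha3 (-0.047), Pcdhgc5 (0.068), Fyn (-0.041), Nlgn1 (0.30), Taf7 (-0.0073) and Omp (-0.025). With the 4 libraries over 1% in Gm10800 left out it turned for Pcdhgb6 (0.039), Taf7 (-0.013), Krt5 (-0.024) and Bglap (-0.046). Without deletion libraries 5 and 6 and wildtype library 5, a set chosen after seeing the data, it turned for Pcdhb17 (0.012), Pcdhgb6 (0.015) and Fyn (-0.0092). With 1 library left out at a time, values ran from -0.0058 to 0.13 for Pcdha3, -0.026 to 0.068 for Pcdhac1, -0.049 to 0.024 for Pcdhgb6, -0.0064 to 0.12 for Pcdhga3, -0.0082 to 0.10 for Fyn, -0.020 to 0.055 for Taf7 and -0.078 to 0.067 for Gap43. Other genes moved by over 1.5 times without a change of direction. Among members the ranges were -0.46 to -0.24 for Pcdha8, 0.052 to 0.14 for Pcdha9, 0.031 to 0.093 for Pcdhac2, 0.21 to 0.44 for Pcdhgc4, 0.051 to 0.29 for Pcdhb12, -0.38 to -0.066 for Pcdhgc5 and -0.15 to -0.031 for Pcdhb17. Among other genes they were -0.42 to -0.045 for Nlgn1, 0.083 to 0.43 for Bglap, 0.12 to 0.30 for Ret, -0.051 to -0.0062 for Ctcf and -0.074 to -0.0085 for Ik. Further ranges were 0.029 to 0.18 for Krt5, 0.025 to 0.11 for Omp, 0.035 to 0.10 for Pcdh1, 0.14 to 0.36 for Ndufa2, -0.23 to -0.11 for Pds5b, 0.094 to 0.26 for Pecam1 and 0.067 to 0.14 for Cyp2g1. The summed Pcdha difference was 1.08% with the Gm10800-rich libraries left out. The cause was not tested. TMM scaling moved the median of all genes by -0.0068 and left 20 members positive and 35 negative.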
